A study of Rattus norvegicus with 12 samples.

Results

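The early response of the injured rat spinal cord, 4 h after a mild compression of the thoracic cord, was compared with sham surgery at the same time. The samples were chosen by the surgery, genotype and time on their labels, which gave 4 of the 12 RNA pools in the study, 2 from injured and 2 from sham-operated cords. Each group held 1 wild-type pool and 1 pool from rats with the G93A SOD1 mutation, an amino acid change in superoxide dismutase 1 that causes inherited amyotrophic lateral sclerosis. The rats were females of the Sprague-Dawley strain, 10 weeks old, and the wild-type rats were littermates of the mutants. The remaining 8 pools were taken 30 min, 24 h and 7 days after injury and 30 min after sham surgery, again 1 for each genotype, and entered the 4 h comparison through the normalization, the detection filter and the estimate of the spread. Every animal had thus been operated on. Laminectomy, the removal of vertebral bone above the cord, is named for part of the animals, and no other detail of the sham surgery is given. A pool combined the RNA of several rats of a genotype and condition, and the sources used here do not say how many. Nor do they say how the mutation is carried and expressed.

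Crushing of cord tissue breaks cells and small vessels and spills their contents. Microglia, astrocytes and vessel walls sense these signals within minutes, through the MAP kinase pathways that switch on AP-1 transcription factors and through NF-kB, which drives cytokine and chemokine genes. Chemokines and the adhesion molecules of the vessel wall then bring neutrophils and monocytes from the blood, while the barrier formed by the tight junctions of the endothelium opens.

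Expression was read on 12 Illumina rat bead arrays, and levels are given as normalized log2 signal, on which a difference of 1 is a 2-fold change. The 4 arrays detected between 51.0% and 53.6% of their probes, and the other 8 between 49.6% and 53.8%, except 1 with 41.3%. This was the pool of injured wild-type rats at 30 min, called the low-detection pool from here on, and counts at 4 h are also given without it. The lowest level on the normalized scale was 6.35, and differences of genes near this floor are understated. The tissue matched its label: all 7 Hox genes of the cord's position code that were tested were detected in all 4 pools, with Hoxb8 between 11.72 and 12.39, and so were the neuronal gene Snap25 (12.97 to 13.28) and the myelin gene Mbp (11.80 to 12.35). The median difference of these Hox genes between injury and sham was -0.32, the lowest of the gene lists below, and 0 of them passed the threshold. The rat Sod1 probe read 12.95 and 12.77 in the wild-type and G93A sham pools and 12.69 and 12.42 in the injured ones. It does not check the genotype, since the carried allele is not described. P-values measure only the spread between pools, which may be technical, and in bulk tissue fewer cells of a type and less RNA per cell cannot be told apart.

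Among the probes past the threshold, far more rose than fell. Of 13793 probes tested in limma, 72 rose (0.522%) and 4 fell (0.029%), together 0.551%, at an adjusted p under 0.05, and 797 had an unadjusted p under that value. Of the 72, 10 rose by at least 2 on the log2 scale, 38 by 1 to 2 and 24 by less. Of these last, 16 lay under 0.5, and in 29 of the 72 the sham mean was under 7, close to the floor. All 76 changed in the same direction in both genotypes, and in all 76 the injured and sham pools did not overlap. The threshold favours such probes, so these counts are a description. Of all probes tested, the pools did not overlap for 43.7%, with the injured pools higher for 20% and lower for 23.7%. Per gene, 66 of 9336 named genes rose (0.707%) and 3 fell (0.0321%), read by the brightest probe, and their median difference was -0.01. The counts of the gene lists below are to be read beside these shares. Those lists were chosen with earlier results of these data known, so their counts are a description. Without the low-detection pool, 217 probes rose (1.58%) and 22 fell (0.16%), with all 76 among them. Without its G93A partner of the same condition 211 rose and 21 fell, again with all 76 among them. No other single pool gave as many calls when left out, so counts without the low-detection pool are the upper end of these settings.

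**Figure D1:**
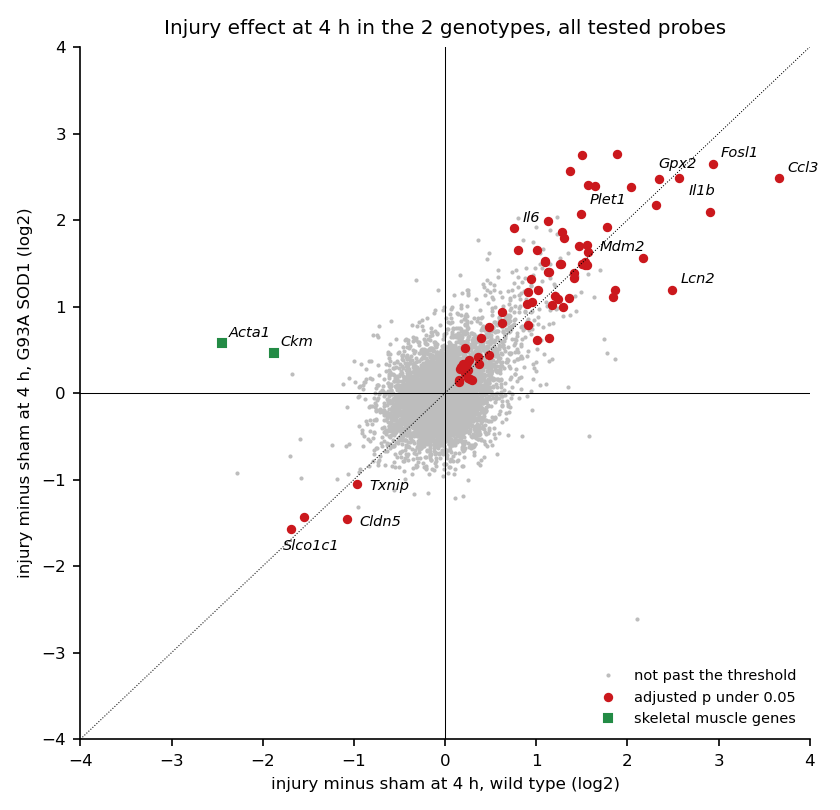
Difference between injury and sham at 4 h in wild-type pools (horizontal axis, log2) and in G93A SOD1 pools (vertical axis, log2) for the 13793 probes tested, with the 76 past the threshold in red and the muscle genes Acta1 and Ckm as green squares. The red points lie in the quadrants where both genotypes moved the same way, and Acta1 and Ckm lie outside them.

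Chemokines were among the genes with the largest increases. Ccl3, which draws monocytes and neutrophils, read 7.14 and 8.36 in the wild-type and G93A sham pools and 10.80 and 10.84 in the injured ones. The sham pools differed from each other by more than 1 log2 unit and the injured pools hardly at all, and both injured pools were higher (3.07 ± 0.36, SE; 8.42-fold; adjusted p = 0.00524). Its neighbour in function, Ccl4, moved from 6.83 and 7.80 to 9.74 and 9.89 (5.66-fold, adjusted p = 0.00524), again with the G93A sham pool above the wild-type one. Cxcl1 and Cxcl2 attract neutrophils through CXCR2. Cxcl1 read 9.41 and 8.80 after sham surgery and 10.91 and 11.55 after injury (4.36-fold, adjusted p = 0.0263). For Cxcl2 the sham pools lay close together at 7.00 and 6.89 and the injured pools apart at 8.37 and 9.45 (3.92-fold, adjusted p = 0.0212). Ccl22, a chemokine for T cells, was detected in neither sham pool and in both injured ones and was at least 1.17-fold higher (adjusted p = 0.0392), a small step just above the floor.

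Of 21 chemokine genes tested, 5 rose and 0 fell, with a list median of 0.54. A further 3 on the array missed the detection filter. Ccl2, the main attractant of monocytes, read 9.87 and 9.99 in the sham pools and 11.22 and 11.62 in the injured ones, and its difference of 1.48 ± 0.36 missed the threshold (adjusted p = 0.143). It passed without the low-detection pool (adjusted p = 0.0481), as did Ccl7, Cxcl13 and Cxcl16, so that 9 of the 21 passed in that setting, where 1.97% of named genes did. The Cxcl16 probe, at mean levels of 8.22 and 9.63, had a detection p under 0.05 in 1 sham pool and 0 injured pools, so its detection does not bear out its difference. Cxcl12, which the meninges and vessels make at rest, was lower in both injured pools (7.55 and 8.0 against 8.60 and 8.59) without passing (adjusted p = 0.524).

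Among the interleukins, Il1b, which starts the cytokine cascade of injured nervous tissue, rose from 7.50 and 8.18 in the wild-type and G93A sham pools to 10.06 and 10.66 (2.52 ± 0.32, 5.74-fold, adjusted p = 0.00662). Il1a, an alarm signal released from damaged cells, went from 6.66 and 6.62 to 7.57 and 7.79 (2.06-fold, adjusted p = 0.0119). Il6, the cytokine that signals through STAT3, lay near the floor in the sham pools (6.84 and 6.75). Its injured pools differed by more than 1 log2 unit, with 7.60 in the wild type and 8.66 in the mutant, and both exceeded the sham pools (2.52-fold, adjusted p = 0.0386). These were the 3 of 20 interleukin, TNF and colony factor genes that rose, and 0 fell (median 0.09), with 4 rising without the low-detection pool. Tnf itself was at the floor in all 4 pools, between 6.46 and 6.51. Of 28 cytokine receptor and JAK-STAT genes, 2 rose (median 0.10), or 3 without the low-detection pool. Tnfrsf12a, the receptor for the cytokine TWEAK, went from 8.33 and 8.77 to 10.64 and 10.94 (4.75-fold, adjusted p = 0.0094). Socs3, the feedback inhibitor of STAT3 signalling, rose by 0.26 ± 0.04 (adjusted p = 0.0119) between sham levels of 6.59 and 6.63 and injured levels of 6.85 and 6.89.

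**Figure D2:**
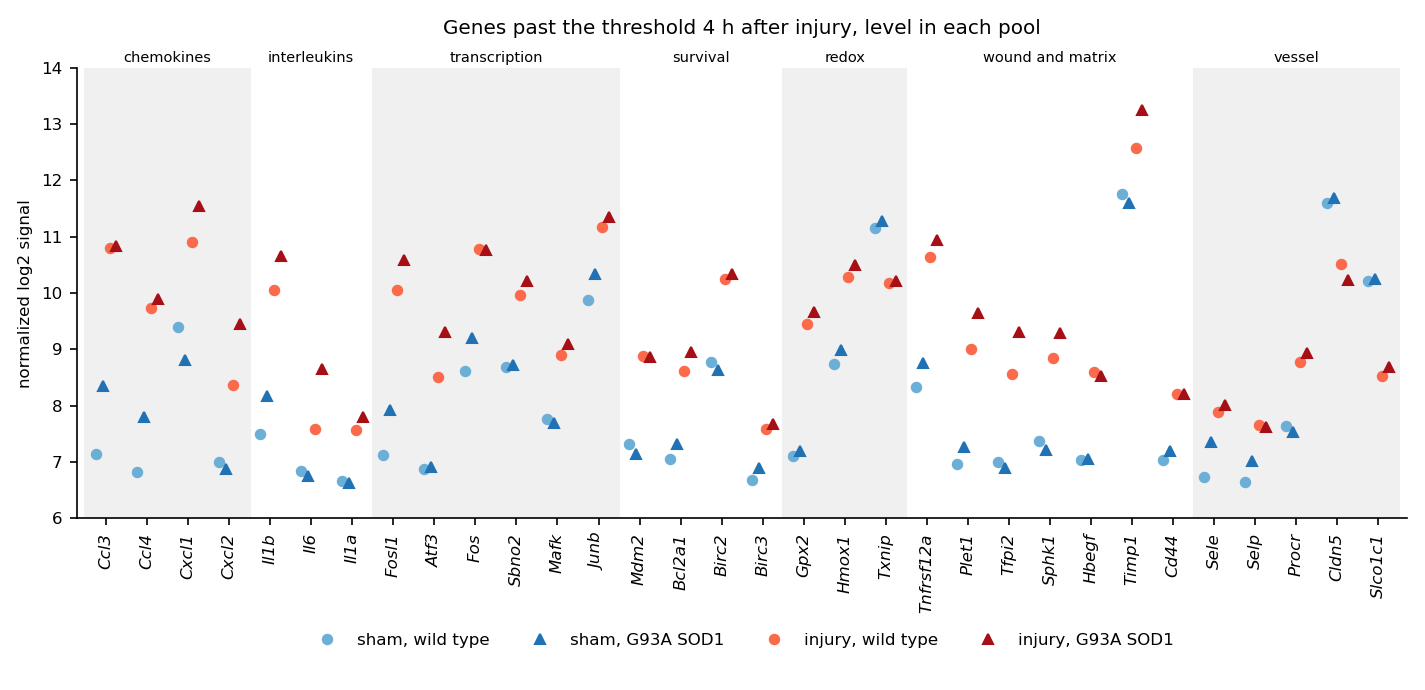
Normalized log2 signal (vertical axis) of selected genes past the threshold at 4 h, grouped by role, in the wild-type sham (light blue circle), G93A SOD1 sham (blue triangle), wild-type injury (orange circle) and G93A SOD1 injury pool (red triangle). Both injured pools lie above both sham pools for all genes shown except Txnip, Cldn5 and Slco1c1, for which they lie below.

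AP-1 subunits and early transcription factors formed the list with the highest median, 0.72, and 7 of its 32 tested members rose and 0 fell. Fosl1, the late Fos family subunit of AP-1, read 7.13 and 7.93 in the wild-type and G93A sham pools and 10.06 and 10.58 in the injured pools (2.79 ± 0.37, 6.93-fold, adjusted p = 0.0094). Fos, the founding member and a classic immediate early gene, read 8.61 and 9.20 and then 10.78 and 10.76 (3.64-fold, adjusted p = 0.0107), and its partner Junb 9.88 and 10.35 and then 11.17 and 11.35 (2.21-fold, adjusted p = 0.0417). The injured pools of Fos nearly coincided, whereas the sham pools of both genes were higher in the mutant. Atf3, a stress-induced factor of injured neurons and glia, went from 6.87 and 6.91 to 8.51 and 9.31 (4.06-fold, adjusted p = 0.0263). The small Maf proteins, which pair with NRF2 or repress its targets, also rose, Mafk by 1.27 ± 0.20 and Maff by 0.23 ± 0.04, the latter just above the floor. Sbno2, a corepressor induced by interleukin 10 and STAT3, rose by 1.38 ± 0.20 (adjusted p = 0.0142). Ier5, a further early response gene, is not among the 7 because its brighter probe was read and did not pass (adjusted p = 0.637), while its other probe rose by 0.35 (adjusted p = 0.0352). Egr1, another immediate early gene, was higher in both injured pools (10.58 and 10.92 against 9.01 and 9.55) and missed the threshold (adjusted p = 0.0635). Together with Myc, Cebpb, Ier2, Atf4 and 5 others it passed without the low-detection pool (adjusted p = 0.0124), which brought the list to 17 of 32. In that setting 1.97% of all named genes rose. Of 17 genes of MAP kinase feedback, 1 rose, the ERK phosphatase Dusp6 (9.62 and 9.48 to 10.62 and 11.13, adjusted p = 0.0484). The list median was 0.21, and 4 of the 17 rose without the low-detection pool.

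The promoters of the genes that rose were searched for the recognition sequences of 4 transcription factor families, since the data bear on genes that moved together. RefSeq promoters of build GRCr8, from 250 bases before to 50 after the transcription start, were found for 57 of the 67 named genes that rose. The AP-1 motif TGANTCA occurred, on either strand, in 11 of the 57 (19.3%) and in 8.04% of all 27457 genes with a promoter. The cAMP response element TGACGTCA, which ATF, CREB and AP-1 dimers bind, occurred in 6 (10.5%, against 2% of all genes), and the NF-kB motif GGGA, any base, TTTCC in 2 (3.51%, against 0.39%). The serum response element core known as the CArG box, searched by its name's consensus, occurred in 0 of the 57 and in 1.77% of all genes, which says only that it was not in these windows. A match is a description of the letters and no evidence of binding. The promoters below are those of the largest increases with each motif, shown from 250 bases before to 10 after the start, 5′ to 3′ on the gene's strand, with motifs in capitals.
Cxcl1 promoter, chr14:17479312-17479571, minus strand: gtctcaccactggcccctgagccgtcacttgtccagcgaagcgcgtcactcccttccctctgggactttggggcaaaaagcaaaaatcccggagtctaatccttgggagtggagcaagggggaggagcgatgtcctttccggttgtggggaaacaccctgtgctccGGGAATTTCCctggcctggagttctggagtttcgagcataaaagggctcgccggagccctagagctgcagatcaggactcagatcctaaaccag
Il6 promoter, chr4:5894566-5894825, minus strand: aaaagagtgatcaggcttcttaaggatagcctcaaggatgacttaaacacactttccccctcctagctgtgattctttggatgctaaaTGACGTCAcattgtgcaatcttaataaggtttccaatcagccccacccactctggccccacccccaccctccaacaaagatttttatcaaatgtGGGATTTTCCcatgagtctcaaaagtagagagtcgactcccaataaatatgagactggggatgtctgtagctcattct
Plet1 promoter, chr8:59738389-59738648, plus strand: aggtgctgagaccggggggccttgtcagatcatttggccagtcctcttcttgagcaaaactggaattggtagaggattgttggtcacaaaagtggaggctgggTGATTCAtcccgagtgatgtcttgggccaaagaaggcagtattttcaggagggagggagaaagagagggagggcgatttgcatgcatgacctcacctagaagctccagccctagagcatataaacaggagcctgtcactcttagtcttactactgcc
Tfpi2 promoter, chr4:32941267-32941526, minus strand: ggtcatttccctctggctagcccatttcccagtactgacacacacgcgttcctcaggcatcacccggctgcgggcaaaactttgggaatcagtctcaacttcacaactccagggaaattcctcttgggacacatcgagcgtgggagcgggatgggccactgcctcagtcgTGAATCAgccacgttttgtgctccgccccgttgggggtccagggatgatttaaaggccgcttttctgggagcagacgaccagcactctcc
Lmcd1 promoter, chr4:146948743-146949002, plus strand: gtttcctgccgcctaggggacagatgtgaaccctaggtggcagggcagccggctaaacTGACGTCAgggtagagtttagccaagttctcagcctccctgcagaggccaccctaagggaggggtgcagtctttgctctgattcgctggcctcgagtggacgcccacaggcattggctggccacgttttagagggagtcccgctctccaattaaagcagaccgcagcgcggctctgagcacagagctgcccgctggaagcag
Ppp1r15a promoter, chr1:105139587-105139846, minus strand: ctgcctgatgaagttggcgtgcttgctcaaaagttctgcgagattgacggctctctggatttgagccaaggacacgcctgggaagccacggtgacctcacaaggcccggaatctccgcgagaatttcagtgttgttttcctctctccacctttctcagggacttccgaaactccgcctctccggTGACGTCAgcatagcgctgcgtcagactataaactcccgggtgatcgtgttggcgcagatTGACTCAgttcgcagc
In Cxcl1 the capitals mark an NF-kB motif that begins 84 bases before the start. Il6 carries a cAMP response element 162 bases and an NF-kB motif 68 bases before it. Plet1 and Tfpi2 have an AP-1 motif 147 and 80 bases before the start, and Lmcd1 a cAMP response element 192 bases before it. Ppp1r15a has both, the response element at 66 and the AP-1 motif at 6 bases before the start. Lmcd1, a LIM domain cofactor of GATA6, rose from 7.18 and 7.27 to 8.48 and 9.06 (2.92-fold, adjusted p = 0.0392). Ppp1r15a (GADD34), which restarts translation after the integrated stress response, rose from 7.11 and 7.28 to 8.53 and 8.60 (2.59-fold, adjusted p = 0.0162). It was the 1 member of 21 in the list of the unfolded protein and integrated stress response that rose, with a list median of 0.04. The count was 2 without the low-detection pool.

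Of 20 genes of the NF-kB pathway, 4 rose and 0 fell, and the median was 0.43. Birc2 and Birc3 encode the cellular inhibitors of apoptosis that act as ubiquitin ligases in TNF signalling. Birc2 read 8.78 and 8.64 in the sham pools and 10.25 and 10.34 in the injured ones (3-fold, adjusted p = 0.0212), and Birc3, close to the floor, 6.67 and 6.89 and then 7.58 and 7.68 (adjusted p = 0.00463). Ptges, the synthase that makes prostaglandin E2, read 7.05 and 7.73 and then 8.92 and 8.92 (2.88-fold, adjusted p = 0.0116). Its injured pools lay together, and its sham pools were apart, with the mutant above the wild type. Tnip2, an inhibitor of NF-kB activation, rose by 0.46 ± 0.07. Nfkbia, the inhibitor that NF-kB itself induces, was higher in both injured pools (11.94 and 12.03 against 11.02 and 11.30, adjusted p = 0.101). With Nfkb1, Nfkb2, Rela and Tnip1 it passed without the low-detection pool (adjusted p = 0.0186). This made 9 of 20, in a setting where 1.97% of named genes rose.

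Of 21 p53 target and apoptosis genes, 2 rose and 0 fell, with a median of 0.07, and 5 rose without the low-detection pool. Mdm2, the ubiquitin ligase that p53 induces and that degrades p53, read 7.32 and 7.15 in the sham pools and 8.88 and 8.87 in the injured ones (1.63 ± 0.19, 3.1-fold, adjusted p = 0.00524). The pools of each group lay close together and the groups far apart. Bcl2a1, an antiapoptotic BCL2 relative and NF-kB target, went from 7.06 and 7.33 to 8.62 and 8.95 (3.02-fold, adjusted p = 0.039). Cdkn1a (p21), the best known p53 target, was close to the floor at 6.59 and 6.69 and 6.92 and 6.85 and did not pass (adjusted p = 0.333).

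Genes of oxidative and metal stress split. Of 29 tested, 3 rose and 1 fell, and the median was 0.04, while 5 rose and 1 fell without the low-detection pool. Gpx2, a glutathione peroxidase under NRF2, had sham levels of 7.11 and 7.19 and injured levels of 9.46 and 9.67 (2.41 ± 0.29, 5.32-fold, adjusted p = 0.00524). Hmox1, which degrades heme, read 8.74 and 8.98 and then 10.28 and 10.50 (2.88-fold, adjusted p = 0.0227). The zinc and iron importer Slc39a14 rose by 0.14 ± 0.02 at the floor, detected in 1 of 2 sham pools and in both injured ones. Txnip, the inhibitor of thioredoxin that also restrains glucose uptake, was lower in both injured pools, at 10.18 and 10.22 against 11.15 and 11.28, and fell by 1.01 (SE 0.18, 2.02-fold, adjusted p = 0.0398). Of 20 hypoxia and glycolysis genes, 1 rose, the hexokinase Hk2, by 0.22 ± 0.04 just above the floor (median 0.04). The count was 2 without the low-detection pool. Heat shock and chaperone genes had 0 of 14 past the threshold (median 0.09), and Hspb1 read 12.06 and 12.07 in the sham and 12.68 and 12.62 in the injured pools. Cryab, a small heat shock protein, passed without the low-detection pool (adjusted p = 0.0412).

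Genes of the wound response were found on several lists. Of 26 matrix, growth and wound factors, 7 rose and 0 fell, with a median of 0.41, and 11 rose without the low-detection pool. Plet1, a surface protein of epithelial progenitor cells in mice, read 6.98 and 7.28 after sham surgery and 9.01 and 9.65 after injury (2.21 ± 0.24, 4.62-fold, adjusted p = 0.00463). Hbegf, a ligand of the EGF receptor, read 7.04 and 7.05 and then 8.60 and 8.53 (2.86-fold, adjusted p = 0.0107), with the pools of each group almost at the same level. Ccn1, a matrix protein induced by mechanical strain and YAP, rose by 1.56 ± 0.28. The lipase inhibitor Angptl4 rose by 1.23 ± 0.15 and the sphingosine kinase Sphk1, which makes sphingosine 1-phosphate, by 1.78 ± 0.25 (3.44-fold, adjusted p = 0.0137). Inhba, the activin subunit, and Bdnf, the neurotrophin, rose by 0.32 and 0.22, both from sham means under 7.

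Of 25 genes of coagulation, fibrinolysis and protease inhibition, 4 rose and 0 fell (median 0.18). Tfpi2, an inhibitor of plasmin and other serine proteases of the matrix, read 6.99 and 6.90 in the sham pools and 8.57 and 9.30 in the injured ones (1.99 ± 0.30, 3.97-fold, adjusted p = 0.0212). Timp1, the tissue inhibitor of metalloproteinases, rose from 11.77 and 11.59 to 12.57 and 13.25 (2.35-fold, adjusted p = 0.038), with the mutant injured pool the highest. Procr, the endothelial receptor of protein C, rose by 1.26 ± 0.20 (adjusted p = 0.0227). Adamts9, a protease that cleaves proteoglycans, rose by 0.39 ± 0.07. Slpi, the leukocyte protease inhibitor, had a larger difference (1.63 ± 0.38) with injured pools far apart at 8.29 and 9.55 and did not pass (adjusted p = 0.124). It passed without the low-detection pool (adjusted p = 0.0391), as did Adamts1, Adamts4 and the stromelysin Mmp3. This made 8 of 25, where 1.97% of named genes rose.

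Of 18 reactive astrocyte genes, 5 rose and 0 fell (median 0.54), 2 of which, Timp1 and Sphk1, were on lists already described. The count was 7 of 18 without the low-detection pool. Lcn2 (lipocalin 2), an iron carrier of reactive astrocytes and neutrophils, read 9.33 and 10.47 in the wild-type and G93A sham pools and 11.83 and 11.66 in the injured ones (3.59-fold, adjusted p = 0.0274). Here the spread lay in the sham pools, which differed by more than 1 log2 unit. Cd44, the hyaluronan receptor, read 7.04 and 7.21 and then 8.21 and 8.22 (2.13-fold, adjusted p = 0.0399), and S1pr3, a receptor of sphingosine 1-phosphate, rose by 0.21 ± 0.03 near the floor. Nes, the intermediate filament nestin, was higher in both injured pools (8.22 and 8.11 against 7.04 and 7.29) and did not pass (adjusted p = 0.143). Among 15 genes of the resting astrocyte, such as the gap junction gene Gja1 (-0.16) and the water channel Aqp4 (-0.11), 0 passed in either direction and the median was -0.16.

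On the adhesion and barrier lists, 3 adhesion genes rose and 2 barrier genes fell. The endothelial selectins, which slow leukocytes on the vessel wall, both rose. Sele read 6.74 and 7.37 in the sham pools and 7.88 and 8.01 in the injured ones (1.86-fold, adjusted p = 0.0352), and Selp 6.64 and 7.02 and then 7.65 and 7.63 (1.75-fold, adjusted p = 0.039). For both selectins the wild-type sham pool was the lowest of the 4. With Cd44 they made 3 of 12 adhesion genes, 0 fell, and the median was 0.65. Icam1, the ligand of leukocyte integrins, had a difference of 1.18 ± 0.28 and missed the threshold (adjusted p = 0.135), and with Cd93 and Itga5 it passed without the low-detection pool (adjusted p = 0.00898). Vcam1 read 9.21 and 9.30 and 9.15 and 9.63, with the wild-type injured pool below both sham pools and the mutant one above them.

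Of 26 barrier and endothelial genes, 0 rose and 2 fell, with a median of -0.06. Slco1c1, the carrier of thyroid hormone into brain and cord, was lower in both injured pools, 8.52 and 8.69 against 10.21 and 10.26, and fell by 1.63 (SE 0.23, 3.09-fold, adjusted p = 0.0137). Cldn5, the claudin that seals endothelial tight junctions, was at 10.52 and 10.24 against 11.60 and 11.70 and fell by 1.27 (SE 0.24, 2.41-fold, adjusted p = 0.0484), a value just inside the threshold. The efflux pump Abcg2 had a difference as large as that of Slco1c1 (-1.60 ± 0.37), but its sham pools read 9.25 and 8.01 and it did not pass (adjusted p = 0.122). It passed without the low-detection pool (adjusted p = 0.0244). The tight junction genes Tjp1 (10.47 and 10.20 in the sham pools and 10.04 and 10.83 in the injured ones) and Ocln (6.57 and 6.61 and 6.49 and 6.49) did not pass, nor did the general endothelial markers Vwf (-0.36) and Tie1 (-0.05). The 1 remaining decrease was of a probe without a gene symbol.

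Several of the largest increases lay outside these lists. Itpkc, a kinase of inositol trisphosphate, read 7.28 and 7.37 in the sham pools and 8.81 and 8.86 in the injured ones (1.51 ± 0.16, 2.85-fold, adjusted p = 0.00463), with the pools of each group close together. Flnc, an actin crosslinker of muscle cells, read 7.64 and 7.68 and then 9.42 and 9.60 (3.61-fold, adjusted p = 0.0227). Other increases were of Tubb6, a beta tubulin (1.5 ± 0.27), of Kdm6b, a demethylase of histone H3 induced by NF-kB (1.47 ± 0.24), of Pvr, the poliovirus receptor and a ligand of natural killer cell receptors (1.57 ± 0.28), and of Plin2, which coats lipid droplets (1.41 ± 0.21). At the lower end, the neuropeptide Ucn2 was detected in neither sham pool and in both injured pools and was at least 1.19-fold higher (adjusted p = 0.0399). The threshold fell between Cldn5, Dusp6 and Hk2 just inside it and Zfand2a just outside (adjusted p = 0.0503).

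**Figure D3:**
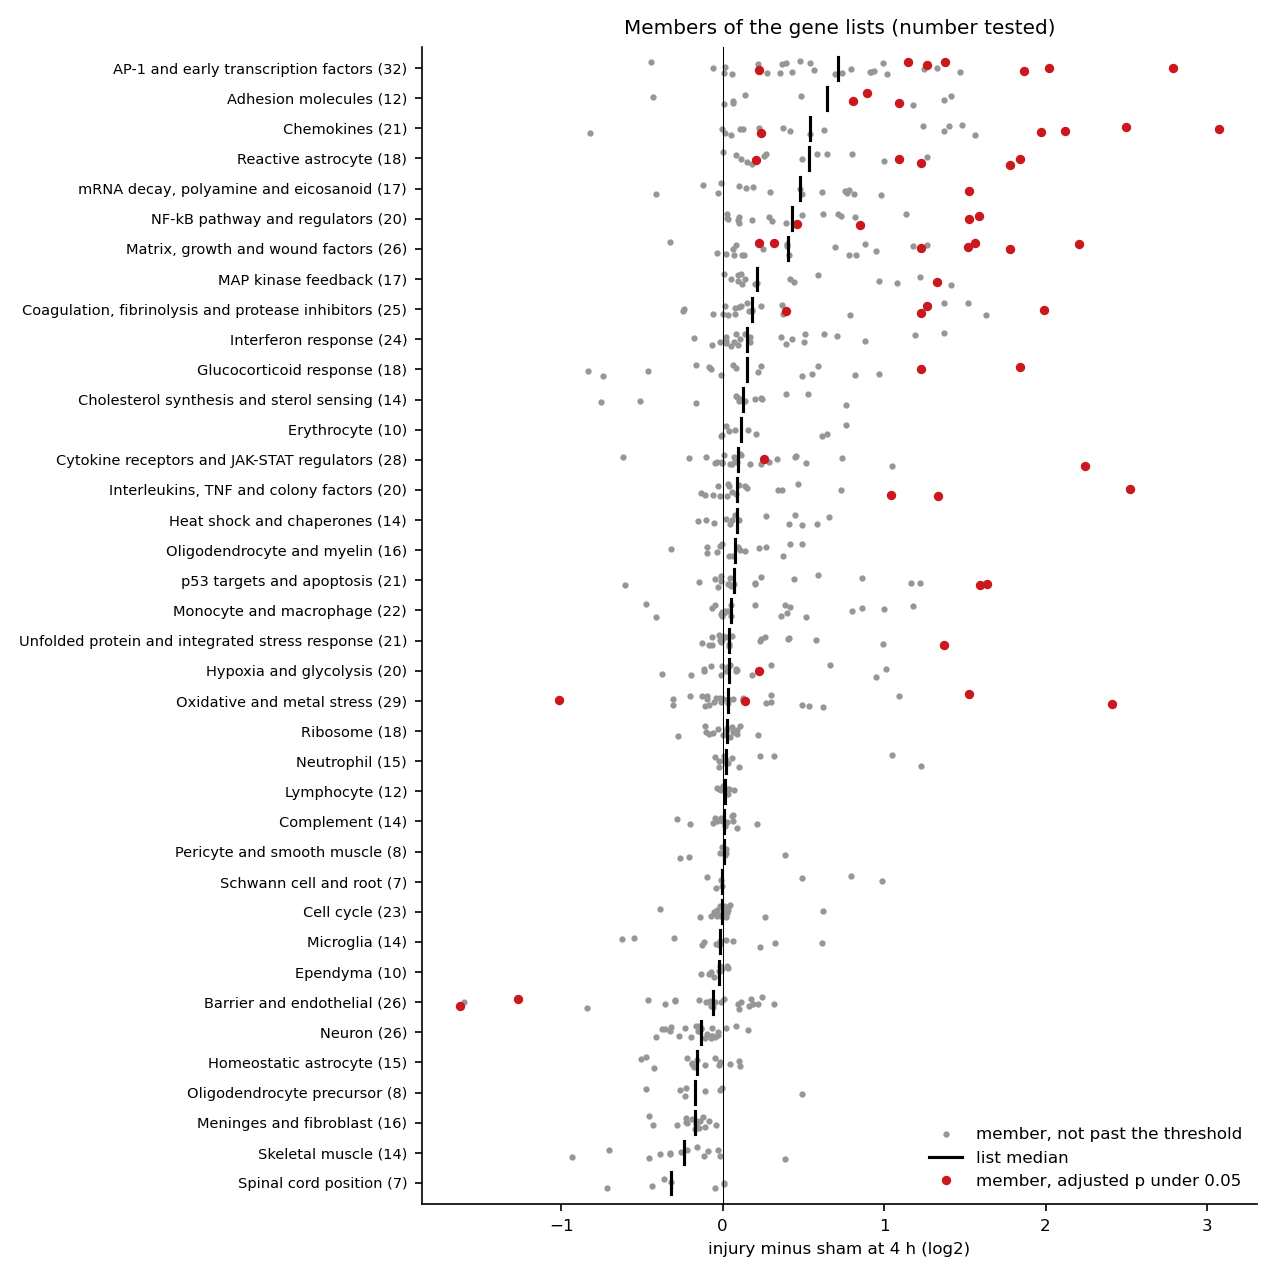
Difference between injury and sham at 4 h (horizontal axis, log2) of the tested members of each gene list, with members past the threshold in red and the list median as a black bar. The medians run from 0.72 for AP-1 and early transcription factors to -0.32 for genes of spinal cord position, and the red points lie to the right of 0 except for Txnip, Slco1c1 and Cldn5.

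The lists that mark immune cells held 0 genes past the threshold. Of 15 neutrophil genes tested, 0 passed and the median was 0.02. Only 6 of the 15 were detected in all 4 pools, so this median mostly reflects levels near the floor. A further 4 on the array missed the detection filter. The summed raw signal of the 15 was 612.2 and 1297 in the wild-type and G93A sham pools and 1181 and 2744 in the injured ones. It was higher after injury within each genotype, and the groups overlapped. S100a8, a calcium-binding protein abundant in neutrophils, read 7.80 and 9.31 in the sham pools and 9.0 and 10.57 in the injured ones, and Il1r2, the interleukin 1 decoy receptor, 6.70 and 7.04 and 7.18 and 8.66. The defining granule gene Mpo was detected in 0 of 4 pools, as was the receptor Csf3r. Of 22 monocyte and macrophage genes, 0 passed (median 0.05), with Lgals3 (galectin 3) the largest at 1.18 ± 0.31 (adjusted p = 0.197) and the monocyte receptor Ccr2 between 6.50 and 6.56 in all 4 pools. Their summed raw signal ran from 4635 to 6084 in the sham pools and from 7461 to 8895 in the injured ones. Without the low-detection pool, Lgals3 (adjusted p = 0.0441) and the Fc receptor Fcgr3a (adjusted p = 0.0355) of the 22 passed. The part of these cells in the increases above was not tested.

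The 14 microglia genes (median -0.02), 14 complement genes (0.01), 12 lymphocyte genes (0.01), 10 erythrocyte genes (0.11), 16 oligodendrocyte and myelin genes (0.08), 8 oligodendrocyte precursor genes (-0.17), 26 neuron genes (-0.13), 16 meningeal and fibroblast genes (-0.17), 10 ependymal genes (-0.02), 7 Schwann cell and root genes (0.00) and 8 pericyte and smooth muscle genes (0.01) held 0 past the threshold. Only 3 of the 12 lymphocyte genes were detected in all 4 pools, and their list had mean levels of 6.49 to 6.54, near the floor. Trem2, a lipid receptor of microglia, read 8.97 and 8.95 in the sham pools and 8.18 and 8.48 in the injured ones (adjusted p = 0.562). Of the neuron genes, Nefl, the light neurofilament, read 13.95 and 13.96 and 13.89 and 13.72. The 18 ribosomal genes had a median of 0.03, and 0 of 23 cell cycle genes, 0 of 24 interferon response genes (median 0.15) and 0 of 14 cholesterol genes (median 0.12) passed. Without the low-detection pool, Irf1 and Gbp2 of the interferon list and Idi1 of the cholesterol list did, as did Ahsp, the chaperone of alpha globin, of the erythrocyte list (adjusted p = 0.0386) and Egr2 of the Schwann cell list (adjusted p = 0.0358), which is also on the list of early transcription factors.

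Skeletal muscle genes stood higher in 1 of the 4 pools. Acta1, the skeletal actin, read 9.52 and 7.18 in the wild-type and G93A sham pools and 7.08 and 7.76 in the injured ones, so that the wild-type sham pool stood well above the other 3. Ckm, the muscle creatine kinase, read 8.34 in that pool and 6.45 to 6.92 in the others. Over 14 muscle genes the median difference was -0.41 in the wild type, 0.10 in the mutant and -0.24 in both, with 0 past the threshold, and their summed raw signal was 3811 in the wild-type sham pool and between 1863 and 2232 in the other 3. In the wild type and the mutant, Slco1c1 differed by -1.69 and -1.57, Cldn5 by -1.08 and -1.46 and Txnip by -0.97 and -1.05. The part of this muscle signal in the 4 decreases was not tested.

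The comparison was set beside that at 30 min, which shares no pool with it but comes from the same fit. Both use the same estimate of the spread of each probe (for Ccl3, SE 0.36 at both times). Calls at both times are therefore not independent, and their overlap is a description. At 30 min after injury 19 probes rose against their own sham pools (0.138%). Of these, 10 rose at both times, which is 13.9% of the 72 at 4 h and 52.6% of the 19 at 30 min. They were Ccl3, Ccl4, Cxcl1, Cxcl2, Il1a, Il1b, Fos, Junb, Atf3 and Ppp1r15a. Ccl3 had risen by 3.18 at 30 min and by 3.07 at 4 h, and Il1b by 2.61 and 2.52. The other 62 passed at 4 h without passing at 30 min, which alone does not show a difference. Tested directly, the injury effect at 4 h minus that at 30 min was past the threshold for 0 of 13793 probes (0%), with 705 at an unadjusted p under 0.05.

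The 5 named genes with the smallest p of that difference were Birc3, Itpkc and Plet1, with the larger effect at 4 h, and Ccrl2 and Rasd1, with the larger effect at 30 min. Plet1 was at 6.58 and 6.46 in the wild-type and G93A pools 30 min after injury, like their sham pools at 6.50 and 6.47, and the difference of the effects was 2.17 ± 0.34 (SE, adjusted p = 0.131). For Itpkc it was 1.5 ± 0.22 and for Birc3 0.85 ± 0.12, with the same adjusted p. Ccrl2, an atypical receptor for chemerin, read 8.5 and 8.0 at 30 min after injury and 6.68 and 6.75 at 4 h (-1.48 ± 0.21). Rasd1, a Ras-like GTPase, read 9.39 and 9.24 and then 7.36 and 7.48 (-1.80 ± 0.27). Without the low-detection pool these 5 and 2 others passed, or 4 probes with the larger effect at 4 h (0.0292%), among them 1 without a symbol, and 3 with the larger effect at 30 min (0.0219%), among them Bglap, the bone protein osteocalcin.

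Sham surgery had its own course, with 7 probes higher at 4 h than at 30 min (0.0508%) and 0 lower. Lcn2, Timp1 and Sbno2 passed in that comparison as well, by 2.94, 2.84 and 1.69, against 1.84, 1.23 and 1.38 for injury over sham at 4 h. The 4 h sham pools enter both comparisons with opposite sign. For 54 of the 72 probes that rose, both 4 h sham pools were above both 30 min sham pools, which held for 2483 of all 13793. Hmox1 showed this at 7.55 and 7.45 after 30 min and 8.74 and 8.98 after 4 h, and Fosl1 at 6.53 and 6.47 and then 7.13 and 7.93.

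**Figure D4:**
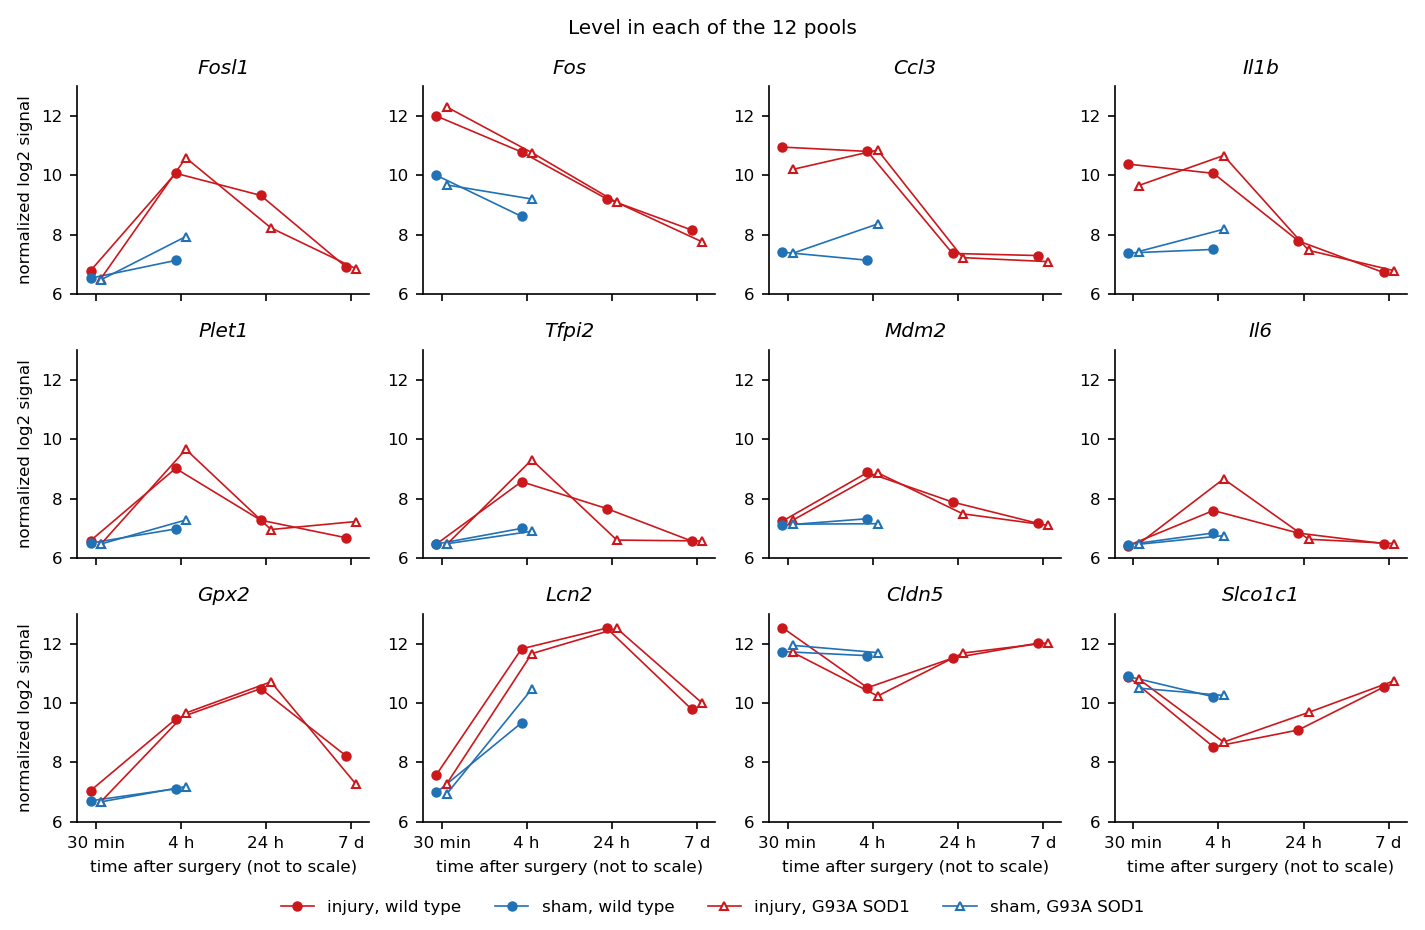
Normalized log2 signal (vertical axis) of 12 genes in each of the 12 pools by time after surgery (horizontal axis, not to scale), for injury (red) and sham (blue), wild type (filled circles) and G93A SOD1 (open triangles). Fos was highest at 30 min, Fosl1, Plet1, Tfpi2, Mdm2 and Il6 at 4 h, and Gpx2 and Lcn2 at 24 h, while Slco1c1 was lowest at 4 h.

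Later pools of injured cord gave the levels at 24 h and 7 days, with no sham pool of their own time. The 72 probes were chosen for high values in the 4 h injured pools, so their counts below those pools are a description. For 57 of the 72 probes both pools at 24 h were below both injured pools at 4 h, for 9 both were above, and for 6 they overlapped. Of all 13793 probes, 31.7% were below and 30.4% above in the same way. The 9 were Plin2, Hmox1, Timp1, Lmcd1, Tubb6, Gpx2, Lcn2, Ezr and Ucn2. Gpx2 reached 10.49 and 10.71 at 24 h and was at 8.23 and 7.27 at 7 days, and Hmox1 went to 11.34 and 10.80 and then 10.37 and 10.35. In contrast, Ccl3 was at 7.36 and 7.22 at 24 h, Mdm2 at 7.88 and 7.49, and Tfpi2 at 7.66 and 6.60. At 7 days both pools were below both 4 h injury pools for 68 of the 72, and for 34.9% of all probes. Among the decreases, Cldn5 was at 11.51 and 11.68 at 24 h, close to the 4 h sham pools, and Slco1c1 at 9.10 and 9.69, still below them.

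The effect of injury was also compared between the genotypes. Across all 13793 probes the injury effects of the 2 genotypes correlated at r = 0.50, a description across probes that are not independent. The difference of the effects was past the threshold for 0 probes (0%), with 131 at an unadjusted p under 0.05. Myh7, a slow muscle myosin, and Mb, myoglobin, came closest, at 1.22 ± 0.12 and 0.78 ± 0.08 (SE, both adjusted p = 0.0566), followed by the carbonic anhydrase Car3 at 1.90 ± 0.23 (adjusted p = 0.115). For these 3 the wild-type sham pool was high, with Car3 at 8.24 against 6.56 to 6.78 in the other 3. Il6 was 1.91 higher after injury in the mutant and 0.76 in the wild type (1.15 ± 0.21, adjusted p = 1), and Nos2, the inducible nitric oxide synthase, read 6.98 in the mutant injured pool and 6.46 to 6.53 in the others (0.43 ± 0.07, adjusted p = 0.557). Without both 30 min injury pools, 14 probes passed, 13 with the higher effect in the mutant (0.096%) and 1 with the lower (0.00739%). Of the 14, 7 were on the skeletal muscle list, 1 had no symbol, and the rest were Car3, Myh7, Ankrd1, Nos2, Il6 and, with the larger effect in the wild type, Rgs16. Car3, Myh7, Ankrd1, the probe without a symbol and the 7 on the list all read highest, among the pools at 4 h, in the wild-type sham pool. Besides the wild-type 4 h sham pool, the wild-type 30 min injury pool removed there was also high in muscle genes, with Acta1 at 9.09 and Ckm at 8.30. The part of the muscle signal of these 2 pools in the 14 calls was not tested.

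How many genes passed depended on single pools. Leaving out each of the 12 in turn gave between 0 and 239 probes. Without the wild-type 4 h sham pool 0 passed in limma, with 431 at an unadjusted p under 0.05, without the G93A 4 h injury pool 13 did, and without the G93A 4 h sham pool 20. Itpkc and Plet1 kept their calls in 11 of the 12 settings, and Ccl3, Ccl4, Il1b, Fosl1, Gpx2, Ptges and Tnfrsf12a in 10. Cldn5, Txnip and Tubb6 kept them in 2. The size of the effect moved by unequal amounts. Lcn2 ran from 1.24 to 2.44, Cxcl2 from 1.38 to 2.56, Pvr from 1.11 to 2.04, Atf3 from 1.48 to 2.55 and Ccl3 from 2.35 to 3.80, whereas Itpkc stayed between 1.48 and 1.55 and Slco1c1 between -1.67 and -1.60.

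**Figure D5:**
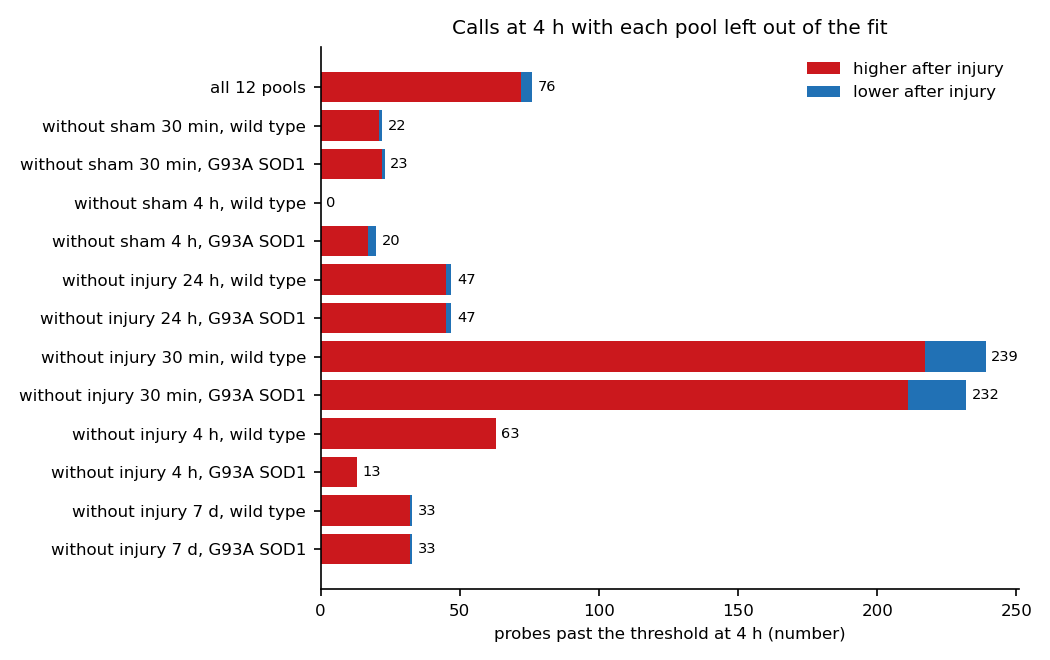
Number of probes past the threshold at 4 h (horizontal axis) with all 12 pools and with each pool left out of the fit, higher (red) or lower (blue) after injury. The bars run from 0 without the wild-type 4 h sham pool to 239 without the wild-type 30 min injury pool.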

How the data were processed

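RNA pools from 12 conditions were hybridised to 1 array each. Signal intensities and detection p-values were exported with BeadStudio 3.2.6 by the authors, per the submitters' processing notes, and the deposited intensities had array means of 324.9 to 326.9, so that a scaling per array is likely but not stated. Identifiers in the deposited table were sorted as text before they were joined to the values, a pairing inferred here: olfactory receptor probes were then detected in 6.08% of arrays instead of 51.8%, and ribosomal and proteasome probes in 90.7% instead of 53.3%. Of 22226 probes, 13192 had 1 symbol, 9034 none and 0 several.

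Intensities were normalized with neqc of limma 3.58.1 (R 4.3.3; background from detection p-values, offset 16, quantile normalization), and probes with a detection p under 0.05 on at least 2 arrays were kept. The 6 conditions and the genotype were fitted together in limma (5 residual degrees of freedom, or 3 for the genotype difference), with eBayes, an intensity trend and Benjamini-Hochberg adjustment at 0.05. The genotype pairs the pools of a condition and served as the block. The model was checked on simulated data. Named genes were the decreases, the 30 largest increases, the largest members of 38 gene lists, markers that define a cell type, and the 5 smallest p of the differences between times and genotypes. Other genes named were chosen after their values were seen. Members and lists were chosen with earlier results of these data known. The alternatives are given after the results. The number of arrays limits the precision.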

Additional observations from a re-analysis of the deposited data

Results flagged for a closer look

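Esm1 and Acta1 went in opposite directions in the genotypes, by at least 0.5 on the log2 scale each. Esm1, a proteoglycan of activated endothelium, was lower after injury in the wild type (8.28 against 8.88) and higher in the mutant (8.86 against 8.03), so that the injury effect was 1.43 higher in the mutant. Acta1, the skeletal muscle actin, read 9.52 after sham surgery and 7.08 after injury in the wild-type pools, and 7.18 and 7.76 in the mutant ones, so that its injury effect was 3.02 higher in the mutant. Neither difference passed in limma (both adjusted p = 1), and Acta1 passed without both 30 min injury pools (adjusted p = 0.000914).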

How the results depend on the processing

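The direction of all 34 named genes tested was the same in every alternative run. All but Sod1 were chosen because they passed with the same pools, so this is a description. A call was lost in 245 of 812 values, which include those of Sod1, a gene without a call. Itpkc alone kept its call in every alternative except the one without the wild-type 4 h sham pool. The count of 76 probes at 4 h became 126 with no normalization between arrays (118 higher and 8 lower), 49 with probes detected on all arrays, 14 with no intensity trend, 679 with the 4 h pools only (502 higher and 177 lower), 237 without both 30 min injury pools, 31 without the 24 h and 7 d pools, and, chosen after the data were seen, 287 without both 30 min and both 7 d injury pools. The fit to the 4 h pools only left 1 residual degree of freedom, so its estimate of the spread leans on that shared across probes. Deposited series matrix values gave 79, of which 63 were shared, and no replicate block for genotype 98. Leaving out 1 pool gave 0 to 239. The other shifts by more than 1.5 times were to 22 (wild type) and 23 (G93A) for the sham pools at 30 min, to 33 for each pool at 7 d, to 47 for each at 24 h, and to 232 for the mutant injury pool at 30 min.

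The count of 0 for the 4 h minus the 30 min effect became 10 with no normalization between arrays, which moved the median of all probes by -0.22, 4 with probes detected on all arrays, 8 with no filter and 3 with no intensity trend, and 0 to 2763 with 1 pool left out. The highest came with the mutant injury pool of 30 min removed, so that the low-detection pool stood alone for that condition. Removing the low-detection pool gave 7, the wild-type 4 h injury pool 13 and the mutant 4 h sham pool 6. The count of 0 for the genotype difference became 7 with no normalization between arrays, 14 without both 30 min injury pools, 5 without the 24 h and 7 d pools, 36 without both 30 min and both 7 d injury pools, and 0 to 14 with 1 pool left out, where the injury pools of 30 min gave 14 (wild type) and 11 (G93A) and the wild-type 7 d pool gave 1. Leaving out a 4 h pool gives no value for it. Causes of these shifts were not tested beyond the samples and probes that each setting removes.

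With the identifiers as deposited the 38 list medians lay between -0.12 and 0.05. With 2 pools in a group, values near the floor of 6.35 and differences seen in 1 genotype are the least certain.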
